A study of Mus musculus with 4 samples.

Results

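Connexins and pannexin 1, the proteins that form channels between lymphatic endothelial cells or from those cells to the outside, were followed in RNA of lymphatic endothelial cells sorted from newborn mouse lungs. The genes were chosen by name as Gja1, Gja4, Gja5, Gjc1, Gjb2 and Panx1. They are 6 of the 24421 rows of the count table, and each name matched 1 row. Cells negative for CD45, a leukocyte surface protein, and positive for CD31, an endothelial surface protein, and for GFP were sorted at postnatal day 0. Jun-cKO animals carried Prox1-CreER, 2 floxed Jun alleles (Junf/f) and Rosa26-mTmG, and Jun-Ctrl animals carried Prox1-CreER, 1 floxed and 1 wild-type Jun allele (Junf/+) and Rosa26-mTmG. Both groups therefore had the Cre recombinase, which works only in the presence of an oestrogen receptor ligand and is driven by the Prox1 gene, both had the reporter that turns green after Cre acts, and both had at least 1 allele that Cre can delete. Lungs of 3 to 5 mice were pooled per group, and RNA was amplified before sequencing. Each group had 2 libraries, called replicate 1 and replicate 2, where replicate 2 is the library marked as a replicate in its title.

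Connexins assemble into hemichannels in the membrane, and the hemichannels of touching cells dock into gap junctions, through which ions and small metabolites pass. In lymphatic endothelium of mice they are known above all from the valves of collecting vessels, where Gja1 and Gja4 are expressed and where loss of either impairs valve formation. Pannexin 1 is unrelated in sequence, makes channels in single membranes and releases ATP.

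Total counts were 15558476 and 6911821 in the 2 libraries labelled Jun-cKO and 16037416 and 6483514 in the 2 Jun-Ctrl libraries. Jun itself, the targeted gene, stood at 524 and 475 CPM (counts scaled to library size, with TMM factors that correct for library composition) in the libraries labelled Jun-cKO and at 472 and 433 CPM in Jun-Ctrl libraries, a log2 difference of 0.14 (SE 0.12, adjusted p = 0.354). Jun RNA was thus not lower under the knockout label, so the libraries are called Jun-cKO-labelled below, and every direction rests on that label. Counts are per gene, which part of Jun is floxed is not given in the sources used here, and RNA of a deleted allele would be counted wherever it still matches. Lyve1, a hyaluronan receptor of lymphatic endothelium, had 8641 and 10260 CPM in Jun-cKO-labelled libraries and 6402 and 5971 CPM in Jun-Ctrl libraries. The 7 lymphatic markers summed to 17177 and 17788 CPM against 13061 and 11856 CPM. Ccl21a, one of the 7, had 0 counts in every library. Lyve1 was the largest part of each sum, and not every marker was higher. Flt4 had 1201 and 897 CPM against 1677 and 1499 CPM, and Prox1 had 34.2 and 31.9 CPM against 39.3 and 43.6 CPM. By the test described below, 3 of the 6 tested markers were called higher and Flt4 was called lower. Of all tested genes, 19.0% were called higher and 22.5% lower. Marker RNA of other lung cells differed between the groups: the summed CPM of 14 epithelial markers was 194 and 192 in the Jun-cKO-labelled libraries against 1676 and 1784 in the Jun-Ctrl libraries, that of 9 mesenchymal and smooth muscle markers was 74.6 and 67.0 against 276 and 281, and that of 9 immune markers was 144 and 131 against 367 and 368. Per the series' design text, cells of 3 replicates of each group were mixed in equal parts ahead of amplification. Nothing given here ties the 2 libraries of a group to separate mice or sorts, so p-values reflect library spread alone, and that spread can be technical.

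In the annotation of mm10 (GENCODE M21), all 6 are protein-coding genes on 6 different chromosomes. Gja1 spans chr10:56377330-56402513 on the plus strand with 3 exons in its longest transcript, and Gja4 spans chr4:127311421-127314039 on the minus strand with 2. Gja5 spans chr3:96904693-97077416 (plus strand), Gjc1 spans chr11:102799579-102819700 (minus), Gjb2 spans chr14:57098600-57104702 (minus) and Panx1 spans chr9:15002128-15045478 (minus, 5 exons).

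The start sites of Gja1, Gja4 and Panx1 are shown because Gja1 and Gja4 were by far the most abundant of the 6 genes and Panx1 was the one that rose, and because Jun binds DNA as part of AP-1. Each line gives the 250 bases before the start site, 5′ to 3′ on the gene's strand, from RefSeq (GRCm38.p6). Capitals mark the AP-1 motif TGANTCA and the GC box GGGCGG, a motif of Sp factors, on either strand.
Gja1, chr10:56377050-56377299, plus strand: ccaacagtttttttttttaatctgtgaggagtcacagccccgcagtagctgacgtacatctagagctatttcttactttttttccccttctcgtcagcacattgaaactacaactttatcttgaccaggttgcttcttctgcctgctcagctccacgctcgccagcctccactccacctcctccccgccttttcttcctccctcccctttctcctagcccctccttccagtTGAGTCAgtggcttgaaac
Gja4, chr4:127314040-127314289, minus strand: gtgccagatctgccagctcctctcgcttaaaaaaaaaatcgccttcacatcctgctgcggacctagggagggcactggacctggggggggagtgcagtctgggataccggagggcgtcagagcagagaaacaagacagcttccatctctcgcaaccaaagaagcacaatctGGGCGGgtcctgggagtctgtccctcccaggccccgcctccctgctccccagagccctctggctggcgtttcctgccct
Panx1, chr9:15045479-15045728, minus strand: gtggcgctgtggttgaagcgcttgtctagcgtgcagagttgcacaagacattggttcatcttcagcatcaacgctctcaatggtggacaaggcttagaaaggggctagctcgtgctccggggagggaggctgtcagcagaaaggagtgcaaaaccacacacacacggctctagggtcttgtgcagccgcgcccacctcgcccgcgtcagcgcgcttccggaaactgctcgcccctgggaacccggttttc
Gja1 held 1 match to TGANTCA, spelled TGAGTCA, from 19 to 13 bases before its start site. The windows of Gja4 and Panx1 held none, nor did those of Gja5 and Gjb2, and Gjc1 had no entry. The motif stood in 6.75% of 32817 promoter windows of the same length. A GC box stood in the window of Gja4, from 79 to 74 bases before the start, in that of Gja5, from 17 to 12 bases before it, in that of Gjb2 at 2 places, and in 32.7% of all windows. The Gja5 window, chr3:97032152-97032401, lies inside the gene span given above, so the start site it precedes is an internal one. The Gja1 window ends at 56377299, ahead of the first base of its gene span, 56377330. Its RefSeq start site therefore differs from the GENCODE one, and the motif distance is from the RefSeq site. The longer motif TGACGTCA, which Jun pairs with ATF proteins can bind, was in none of the 5 windows and in 1.55% of all. A match describes letters only and is no evidence of binding.

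Gja1 and Gja4 dominated, and the other genes formed 2 lower tiers. Levels between genes are compared per length, as RPKM (TMM-scaled CPM divided by the gene length in kilobases). Gja1, the most widely expressed connexin, had 188 and 223 RPKM in the Jun-cKO-labelled libraries and 220 and 219 RPKM in the Jun-Ctrl libraries. Gja4, a connexin of vascular and lymphatic endothelium, had 144 and 142 RPKM in the Jun-cKO-labelled libraries and 172 and 195 RPKM in the Jun-Ctrl libraries. Gja1 lay above Gja4 in every library. By mean CPM, Gja1 ranked 220 and Gja4 ranked 636 of the 12656 tested genes.

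Panx1 and Gjc1 made up the second tier. Panx1 had 8.37 and 7.61 RPKM in the Jun-cKO-labelled libraries and 5.14 and 6.12 RPKM in the Jun-Ctrl libraries. Gjc1, a connexin best known from smooth muscle and the conduction system of the heart, had 5.48 and 5.79 RPKM in the Jun-cKO-labelled libraries and 5.11 and 4.95 RPKM in the Jun-Ctrl libraries. Panx1 lay above Gjc1 in both groups without overlap, but in Jun-Ctrl replicate 1 the 2 genes were nearly equal, at 5.14 RPKM for Panx1 and 5.11 RPKM for Gjc1. The lowest tier was Gja5, a connexin of arterial endothelium and atrial muscle, and Gjb2, a connexin of epithelia and the inner ear, both under 0.2 RPKM in every library. In the Jun-Ctrl libraries these 2 genes overlapped, at 0.114 and 0.192 RPKM for Gja5 and 0.101 and 0.191 RPKM for Gjb2, and their order cannot be given. RNA was amplified, and how reads spread along each gene is not visible in counts per gene, so values per length carry that uncertainty.

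**Figure D1:**
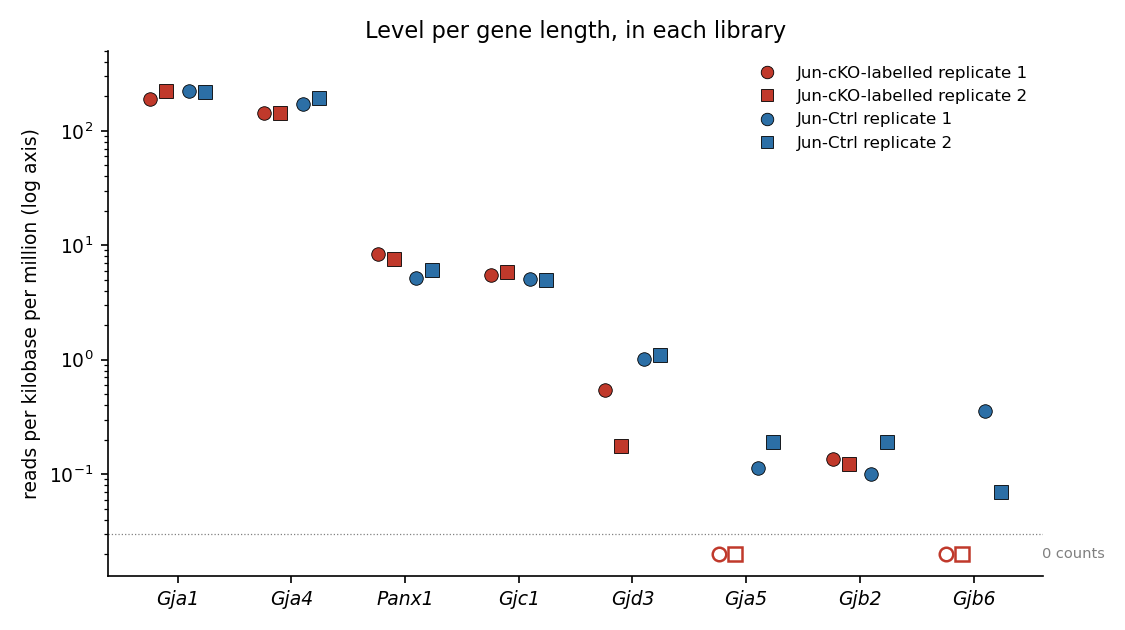
Level per length (RPKM, log axis) of the connexin and pannexin genes in each library, red for Jun-cKO-labelled and blue for Jun-Ctrl, circles for replicate 1 and squares for replicate 2; open symbols below the dotted line are libraries with 0 counts. Gja1 and Gja4 stand above 140 in every library, and Gja5 and Gjb2 below 0.2.

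Whether loss of the second floxed Jun allele changes these channel genes is what the 2 genotypes address. Of the 4 genes with enough counts to test, Panx1 rose, Gja4 fell, and Gja1 and Gjc1 did not pass the test. Calls are at a Benjamini-Hochberg adjusted p under 0.05 over all 12656 tested genes, from edgeR's quasi-likelihood test. By that rule 41.5% of all tested genes were called, 19.0% higher and 22.5% lower, so 2 calls among 4 genes is close to the background. The median log2 difference was 0.030 for the 4 genes and 0.0053 for all tested genes.

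Gja1 had 8926 and 4698 counts (585 and 694 CPM) in Jun-cKO-labelled libraries and 11286 and 4439 counts (684 and 679 CPM) in Jun-Ctrl libraries. The Jun-Ctrl libraries were nearly equal and lay between the Jun-cKO-labelled ones, so the groups overlapped. The log2 difference was -0.094 (SE 0.12, adjusted p = 0.567), with a 95% interval of 0.790 to 1.11 for the fold. Its sign turned to 0.025 without Jun-cKO-labelled replicate 1. After correction for GC content it was -0.28 with an adjusted p of 0.0484, the only one of its 13 alternatives that passed (adjusted p from 0.0484 to 0.909).

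Gja4 had 3710 and 1617 counts (243 and 239 CPM) in Jun-cKO-labelled libraries and 4770 and 2147 counts (289 and 328 CPM) in Jun-Ctrl libraries. Both Jun-cKO-labelled libraries lay below both Jun-Ctrl libraries, as the groups of 71.3% of all tested genes were separate in one direction or the other. Gja4 fell 1.28-fold (log2 difference -0.36, SE 0.12, adjusted p = 0.0116). After correction for GC content its sign turned, to 0.090 (adjusted p = 0.523), and the call ended without Jun-Ctrl replicate 2 (adjusted p = 0.159); over 13 alternatives the adjusted p ran from 0.00416 to 0.523. The longest Gja4 transcript has 58.8% GC, against 42.2% for Gja1, 45.6% for Gjc1 and 50.1% for Panx1.

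Panx1 had 265 and 107 counts (17.4 and 15.8 CPM) in Jun-cKO-labelled libraries and 176 and 83 counts (10.7 and 12.7 CPM) in Jun-Ctrl libraries. Both Jun-cKO-labelled libraries lay above both Jun-Ctrl libraries. Panx1 rose 1.45-fold (log2 difference 0.54, SE 0.19, adjusted p = 0.0160), with a 95% interval of 1.12 to 1.88. After GC correction the difference was 0.54 as well (adjusted p = 0.0143). The call ended with the DESeq2 Wald test (adjusted p = 0.108), without Jun-cKO-labelled replicate 1 (0.0987) and without Jun-Ctrl replicate 1 (0.248), within a range of 0.0101 to 0.248 over 13 alternatives.

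Gjc1 had 243 and 114 counts (15.9 and 16.8 CPM) in Jun-cKO-labelled libraries and 245 and 94 counts (14.9 and 14.4 CPM) in Jun-Ctrl libraries. The groups did not overlap, but the difference of 0.15 (SE 0.18, adjusted p = 0.514) did not pass the test. The 95% interval of its fold, 0.869 to 1.42, leaves room for changes nearly as large as that of Panx1.

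**Figure D2:**
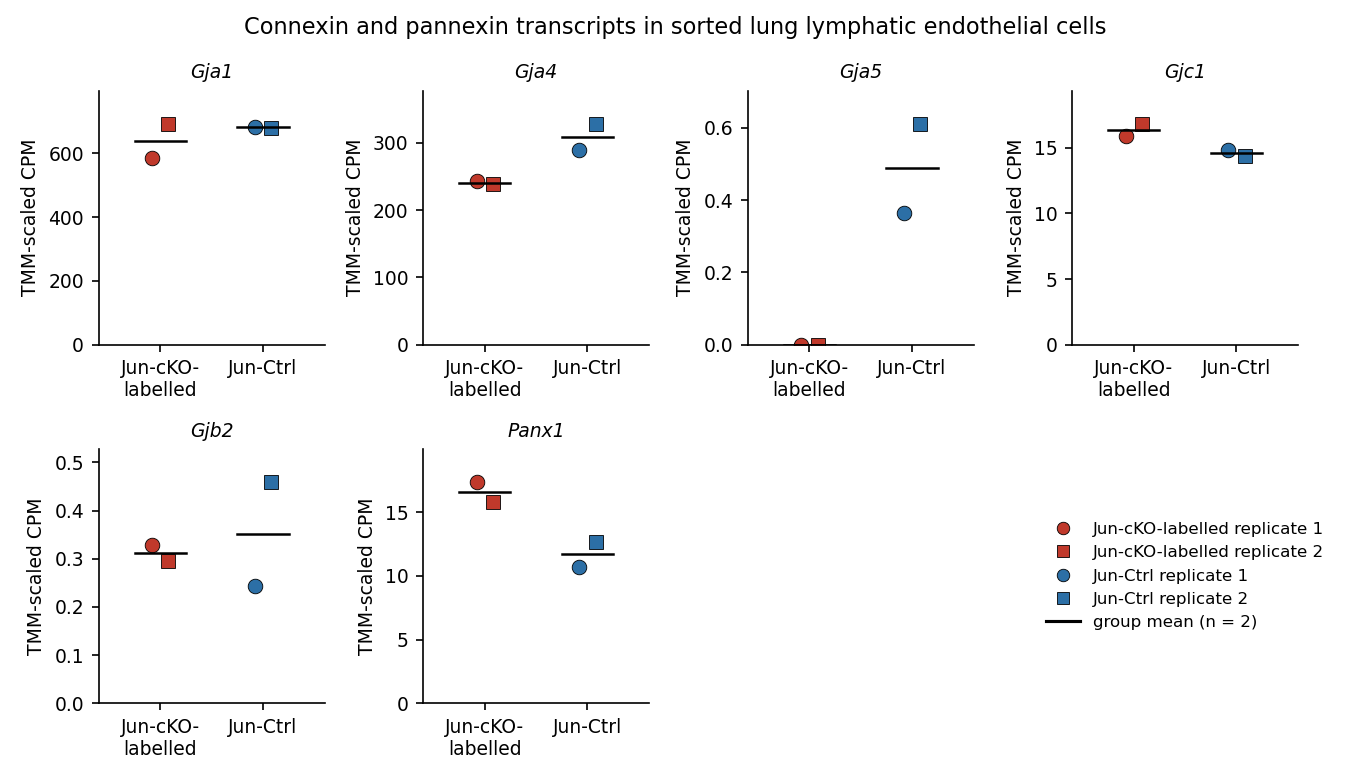
TMM-scaled CPM of the 6 genes in each library, with Jun-cKO-labelled libraries left (red) and Jun-Ctrl libraries right (blue), circles for replicate 1, squares for replicate 2 and a line at the mean of each group (n = 2). Each panel has its own axis from 0; Gja4 (before GC correction, which turns its sign) is lower and Panx1 is higher in both Jun-cKO-labelled libraries, and Gja1 overlaps.

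Gja5 and Gjb2 were too weak for the filter on low counts. Gja5 had 0 and 0 counts in the Jun-cKO-labelled libraries and 6 and 4 counts in the Jun-Ctrl libraries. Taking 3 counts over the whole group as the most that a 0 allows, it was 3.19-fold lower under the Jun-cKO label. That value takes the Jun-Ctrl counts as exact and is not a lower bound. The exact 95% interval for the ratio of summed counts scaled to library size ran from 0 to 0.466, and covers counting error only. With no filter on low counts the adjusted p of Gja5 was 0.0292. Its exons overlap those of Gpr89 on the opposite strand, and its longest transcript shares 856 bases at 99.4% identity with a transcript of Zfp697, so these few reads are of uncertain origin. Arterial endothelium and heart muscle are known sources of Gja5. The 9 blood endothelial markers summed to 504 and 492 CPM in Jun-cKO-labelled libraries and to 610 and 657 CPM in Jun-Ctrl libraries. None was at 0 in all 4. Not every marker was lower: Plvap fell, Gpihbp1 and Vwf rose, and Sox17 overlapped between the groups. The 6 cardiomyocyte markers summed to 7.47 and 6.94 CPM against 10.2 and 9.03 CPM. Among them Tnnt2 and Myh7 were lower and Myh6 overlapped, while Myl7, Actc1 and Nppa were higher in both Jun-cKO-labelled libraries. The part of arterial endothelium and heart muscle in the Gja5 reads was not tested.

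Gjb2 had 5 and 2 counts in the Jun-cKO-labelled libraries and 4 and 3 counts in the Jun-Ctrl libraries. The groups overlapped, and the ratio of summed counts scaled to library size was 1.05 with an exact 95% interval of 0.313 to 3.49. Any ratio within those bounds is compatible with these few reads, so no direction can be given. Of the 14 epithelial markers, 13 were called lower, where 22.5% of all tested genes were, and Gjb2 reads numbered 7 in each group. The part of epithelial cells in the Gjb2 reads was not tested.

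Outside the 6, the other connexin and pannexin genes considered had few reads or none. Of 19 genes of the family, the 6 included, 8 had no count in any library, namely Gja3, Gja10, Gjb1, Gjc3, Gjd2, Gje1, Panx2 and Panx3. Another 7, Gja5 and Gjb2 among them, had counts but did not reach the test. Gjd3 had 7 and 1 counts in the Jun-cKO-labelled libraries and 14 and 6 in the Jun-Ctrl libraries. Gjb6, which neighbours Gjb2 on chromosome 14 and often accompanies it in epithelia and glia, had 0 and 0 counts against 13 and 1, so 1 Jun-Ctrl library held nearly all of its reads. Gja6 had 0 and 2 counts against 4 and 0, Gjd4 had 0 and 0 against 2 and 0, and Gjb5 had a single read, in Jun-Ctrl replicate 1. The tested genes among the 19 were the 4 described above. With no filter on low counts, 4 of the 19 were called, 1 higher and 3 lower, the additions being Gja5 and Gjb6.

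**Figure D3:**
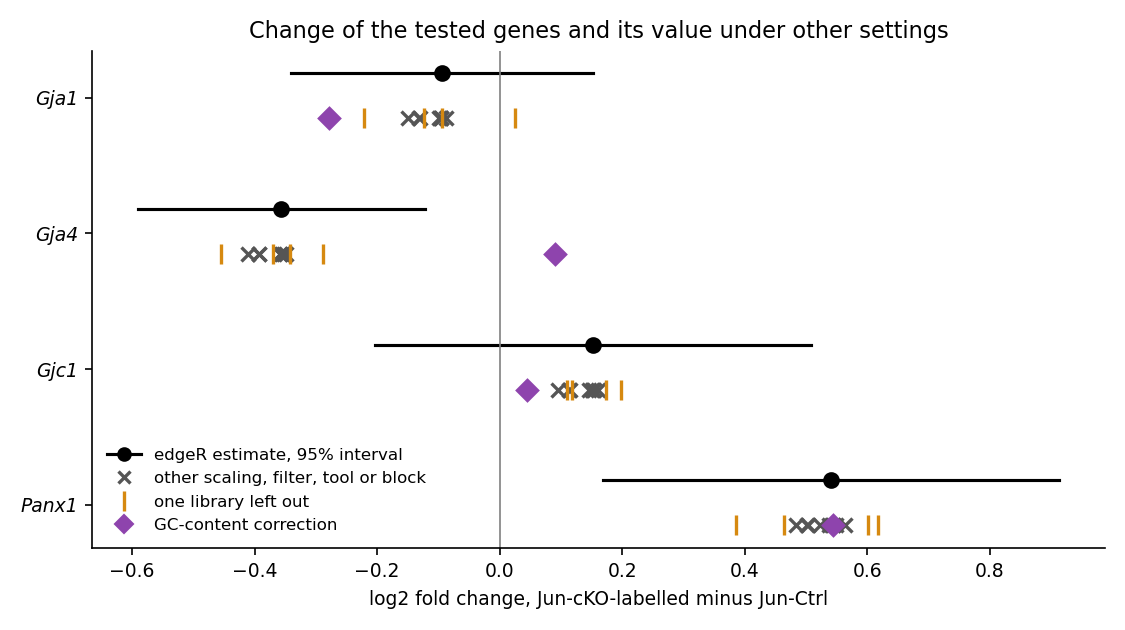
Log2 difference (Jun-cKO-labelled minus Jun-Ctrl) of the 4 tested genes, with the edgeR estimate and its 95% interval in black and the value under each alternative below it. The purple GC-corrected value of Gja4 lies at 0.090 against -0.36 as counted, while that of Panx1 stays at 0.54.

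The balance of the 2 abundant connexins was also compared. The ratio of Gja1 to Gja4 per length was 1.31 and 1.58 in the Jun-cKO-labelled libraries and 1.28 and 1.12 in the Jun-Ctrl libraries, separate by a narrow margin. This direction turned after GC correction, where the log2 difference was -0.28 for Gja1 and 0.090 for Gja4. With 2 libraries against 2, an exact permutation test (two-sided) gave p = 0.333 for this ratio, the smallest p the design allows. In sorted pools, fewer cells that express a gene and less RNA per cell cannot be told apart, and this holds for each gene above.

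Genes whose values over the 4 libraries ran most like each connexin were sought as the smallest Euclidean distance of centred log2 CPM over tested genes that averaged 50 counts or more. They were Polr3e and Ddx3x for Gja1 (distances 0.022 and 0.022 on the log2 scale), Cyhr1 and Pgd for Gja4 (0.010 and 0.021), Pde12 and Ptprb for Gjc1 (0.021 and 0.021) and Psmb10 and Zfp354c for Panx1 (0.038 and 0.043). These are descriptions over 4 libraries that share their scaling.

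Genes that act on connexins gave 5 calls, all lower, among 12 tested partners and kinases. In number that is close to the 41.5% of all tested genes called in either direction. By direction, 22.5% of all tested genes were called lower and 19.0% higher. The median log2 difference of the list was -0.23, and after GC correction it was 0.016, with 1 call higher and 3 lower. Prkca, a protein kinase C that phosphorylates the Gja1 protein, had 19.6 and 17.6 CPM in Jun-cKO-labelled libraries and 55.1 and 57.8 CPM in Jun-Ctrl libraries. It fell 3.01-fold (adjusted p = 1.3e-12, edgeR). Akt1, another kinase of the Gja1 protein, had 156 and 111 CPM against 231 and 236 CPM and fell 1.73-fold (log2 difference -0.79, adjusted p = 1.24e-06), with -0.33 after GC correction (adjusted p = 0.0225, range 1.69e-12 to 0.0225). Nov, a matricellular protein that binds the Gja1 tail, fell 1.27-fold (adjusted p = 0.0201), a call that ended with DESeq2 (0.0662) and without Jun-cKO-labelled replicate 1 (0.219), Jun-Ctrl replicate 1 (0.139) or Jun-Ctrl replicate 2 (0.0749), within a range of 0.00347 to 0.219. Csnk1d, a casein kinase that acts on gap junction assembly, fell 1.26-fold (adjusted p = 0.0207), a call that ended after GC correction (0.330) and without Jun-cKO-labelled replicate 2 (0.0753) or Jun-Ctrl replicate 2 (0.177), within a range of 0.00784 to 0.330. Tjp1, the scaffold that holds Gja1 plaques at the membrane, had 209 and 208 CPM against 186 and 162 CPM and did not pass (log2 difference 0.26, SE 0.12, adjusted p = 0.0654).

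On the receiving side of Panx1, 2 of 6 tested ATP and adenosine receptors and ectonucleotidases were lower and none higher, with a median of -0.35 (0.14 over the 2 genes that a filter of 50 counts leaves), against 41.5% of all tested genes called and 22.5% called lower. Entpd1, which breaks down extracellular ATP, had 2.23 and 2.21 CPM in Jun-cKO-labelled libraries and 6.61 and 4.90 CPM in Jun-Ctrl libraries. It fell 2.67-fold (adjusted p = 0.000203, edgeR), a call that ended without Jun-Ctrl replicate 1 (0.0546, range 2.07e-05 to 0.0546). Adora2b, an adenosine receptor, had 4 and 0 counts against 34 and 7 counts and an adjusted p of 0.000161, or 0.118 without Jun-Ctrl replicate 1 (range 4.49e-05 to 0.118). Both genes are also expressed by immune or epithelial cells, whose markers were lower in the same libraries; the part of those cells was not tested.

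Genes of lymphatic valves, the structures in which these connexins are best known, moved both ways. Of 15 tested, 4 were higher and 5 lower, where 19.0% of all tested genes were called higher and 22.5% lower. Their median of -0.090 turned to 0.16 after GC correction, 0.036 without Jun-cKO-labelled replicate 2 and 0.040 without Jun-Ctrl replicate 1. Foxc2, a transcription factor of valve cells, lies upstream of Gja4 in mouse. It had 232 and 249 CPM in Jun-cKO-labelled libraries and 155 and 133 CPM in Jun-Ctrl libraries. Foxc2 rose 1.66-fold (log2 difference 0.73, adjusted p = 1.69e-06, edgeR), with 1.22 after GC correction. Sema3a, a guidance protein needed for valves, rose 1.55-fold (log2 difference 0.63, adjusted p = 1.63e-05), with 0.43 after GC correction. Piezo1, a mechanically gated channel, had 2.56 and 1.48 CPM against 13.7 and 15.6 CPM and fell 6.61-fold (adjusted p = 3.8e-12). Ephb4, a receptor of valve endothelium, fell 1.66-fold (log2 difference -0.73, adjusted p = 2.86e-06), with -0.31 after GC correction (adjusted p = 0.0210, range 5.37e-08 to 0.0210). Gata2 and Prox1, transcription factors of valve cells, did not pass, at log2 differences of -0.26 (adjusted p = 0.0626) and -0.31 (adjusted p = 0.0686).

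**Figure D4:**
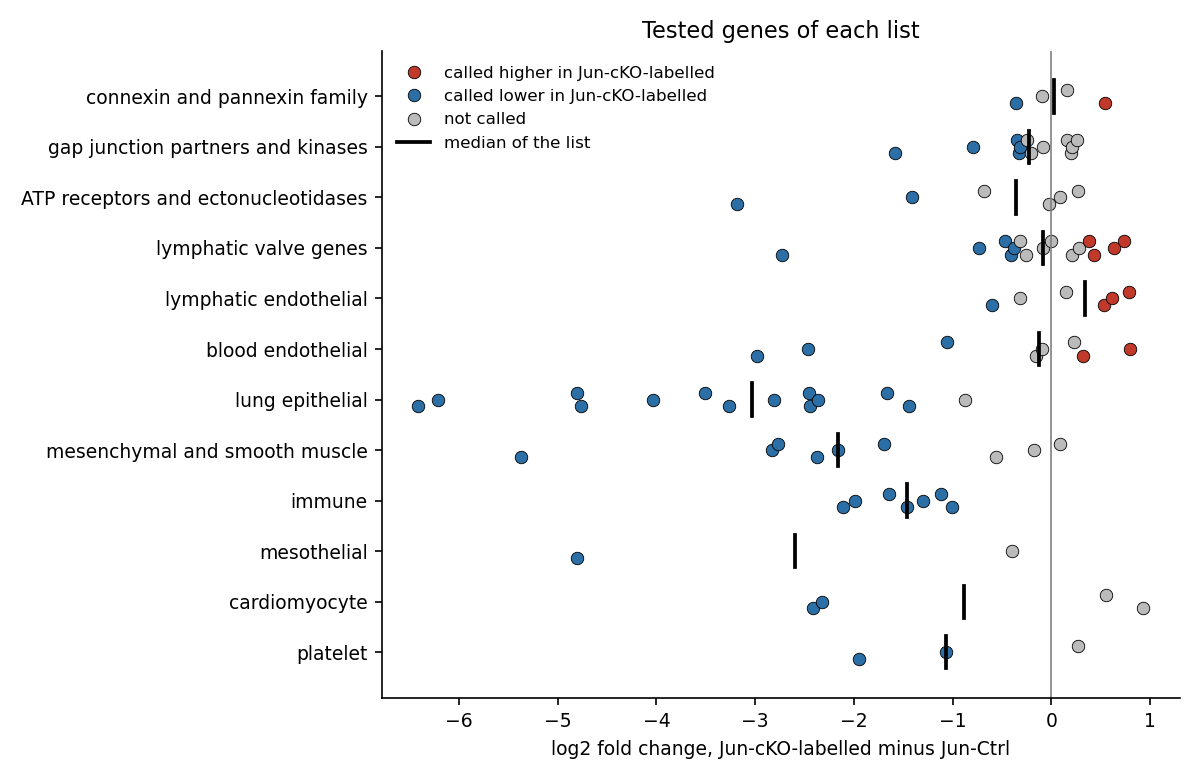
Log2 difference (Jun-cKO-labelled minus Jun-Ctrl) of the tested genes of each list, red where called higher, blue where called lower and grey where not called, with a bar at the median. The connexin and pannexin family and the valve genes spread to both sides of 0, and the epithelial, mesenchymal and immune markers lie mostly below it.

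Other cells that could bring connexin RNA were represented too, each list summing to less than the lymphatic markers in every library. The most abundant epithelial marker, Sftpc, had 112 and 116 CPM in Jun-cKO-labelled libraries and 1267 and 1333 CPM in Jun-Ctrl libraries. By mean CPM over the 4 libraries, Col1a2 led the mesenchymal list with 42.1 and 37.5 CPM against 130 and 131 CPM, S100a9 the immune list with 86.4 and 69.8 CPM against 225 and 208 CPM, and Plvap had the highest mean CPM of the blood endothelial list with 183 and 134 CPM against 326 and 336 CPM. Of the 8 tested blood endothelial markers, 2 rose and 3 fell. Gpihbp1, which stood above Plvap in both Jun-cKO-labelled libraries, rose, with 228 and 243 CPM against 174 and 205 CPM (adjusted p = 0.0249, edgeR), as did Vwf (adjusted p = 0.0390), and Plvap, Car4 and Cxcl12 fell. Msln had the highest mean of the 4 mesothelial markers, with 1.05 and 1.18 CPM against 27.9 and 34.3 CPM, though Wt1 lay above it in Jun-cKO-labelled replicate 1, and the list summed to 2.69 and 2.21 CPM against 30.9 and 36.1 CPM. The 4 platelet markers summed to 5.90 and 4.28 CPM against 7.10 and 12.5 CPM. Their highest mean was that of Itga2b, with Gp1bb above it in both Jun-Ctrl libraries, and the highest cardiomyocyte mean was that of Tnnt2, with Actc1 and Myl7 above it in both Jun-cKO-labelled libraries. Defining markers at 0 in every library were Cd3e of T cells and Ppbp of platelets, and Epcam of epithelium had 2 and 0 counts against 48 and 16. Gja1 is expressed by fibroblasts, smooth muscle and alveolar epithelium as well. Its CPM overlapped between the groups, and the marker sums of those cells were lower in the Jun-cKO-labelled libraries. Of the 9 mesenchymal and smooth muscle markers, 6 were called lower and 0 higher, where 22.5% of all tested genes were called lower. Pdgfra and Pdgfrb, 2 of the 9, overlapped between the groups. Whether these cells contributed to the Gja1 level or to the Gja4 difference was not tested.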

How the data were processed

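RNA of the sorted cells was isolated with the PicoPure kit and amplified with the RiboAmp HS PLUS kit, and reads were 79 bases long, per the labels' protocols. The authors deposited raw read counts per gene beside each gene's length in bases, used here for levels per length. The submitters' processing notes name STAR 2.7.2a, featureCounts 1.6.4, edgeR 3.28.1 and mm10, with no role for any. No annotation or strand setting is given in the sources used here, so reads of overlapping genes cannot be told apart.

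The deposited counts went into edgeR 4.0.16 (R 4.3.3; glmQLFit, glmQLFTest, TMM, filterByExpr, no block), Jun-cKO minus Jun-Ctrl over all 4 libraries and 12656 genes. A standard error is the log2 difference over the square root of F. The test was tried on simulated counts that held no GC trend, a check of the code that does not bear on the calls above. Libraries of the same group were kept as separate replicates, since their counts differed beyond sampling noise: the median chi-square was 1.59 for Jun-cKO-labelled and 1.27 for Jun-Ctrl, against 0.455 by sampling alone. GENCODE M21 (GRCm38) gave positions and the GC content of the longest transcript, known for 96.3% of tested genes. The GC correction is an offset from a loess curve (span 0.5) in each library. Shared stretches were sought with blastn 2.17.0 at 97% identity or more.

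Some genes of the family are not reported here. The 6 genes and all lists were chosen with earlier results of these data known. By rule, the text names Jun, the 6 genes, family members with a count, in each list up to 4 calls with the smallest p, the 2 nearest genes of each tested member, and in each marker list the most abundant gene and those at 0. Tjp1, Gata2, Prox1, Epcam, Gpihbp1, Vwf, Car4, Cxcl12, Wt1, Gp1bb, Actc1, Myl7 and family members at 0 were added after their values were seen. So were Flt4, Sox17, Myh6, Myh7, Nppa, Pdgfra and Pdgfrb. The alternatives were scaling by DESeq2 size factors, by upper quartiles or by library totals, the Wald test of DESeq2 1.42.0, limma-voom (limma 3.58.1), no filter on low counts, a filter of 50 counts in 2 libraries, a block for the replicate mark, GC correction, and each library left out in turn.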

Additional observations from a re-analysis of the deposited data

How the results depend on the processing

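Gjc1 kept its direction and side of the threshold under all 13 alternatives. The valve list kept a count of calls within 1.5 times under all 13. Its median changed sign after GC correction and without Jun-cKO-labelled replicate 2 or Jun-Ctrl replicate 1. Leaving out 1 library gave 3206 to 4928 calls over the whole table against 5251 (3352 without Jun-Ctrl replicate 1; 3206 without Jun-Ctrl replicate 2). It gave log2 differences of -0.22 to 0.025 for Gja1 (0.025 without Jun-cKO-labelled replicate 1), -0.45 to -0.29 for Gja4 and 0.39 to 0.62 for Panx1. It gave 2 to 4 calls in the partner list, with 3 for Jun-cKO-labelled replicate 2 or Jun-Ctrl replicate 1 left out and 2 for Jun-Ctrl replicate 2. The ATP receptor list had 0 to 3 calls, with 0 by edgeR for Jun-Ctrl replicate 1 left out, where 2 of 6 genes were at an unadjusted p under 0.05. GC correction gave 0.090 for Gja4, -0.28 for Gja1 and 0.41 for Jun (adjusted p = 0.00388); the cause was not tested. The DESeq2 Wald test gave 0.52 for Panx1 and 3 calls in the partner list. The family, with 2 calls, had 4 with no filter, 1 with the DESeq2 Wald test and 1 to 2 with a library left out (1 for Jun-cKO-labelled replicate 1 and for either Jun-Ctrl library). The filter of 50 counts takes Entpd1 and Adora2b out of the edgeR test, and the ATP receptor list then had 0 calls and 0 of 2 genes at an unadjusted p under 0.05, against 2 by DESeq2 and 2 by limma-voom with the usual filter. Library totals moved the level of Gja4 in the Jun-cKO-labelled libraries to 140.1 RPKM and that of Gja1 in Jun-Ctrl to 224 RPKM. The libraries share only a replicate mark: deviations of those with the same mark correlated at 0.073, and the replicate block gave 5426 calls over the whole table, 2 in the family, and changed no call of the 4 tested genes. With 2 libraries per group, small changes go undetected.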
